A study of Mus musculus with 11 samples.

Results

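Glycolysis turns glucose into pyruvate and lactate in the cytosol, and 10 genes that encode enzymes of this route were followed in the hypothalamus of mouse offspring. They were Hk1, Gpi1, Pfkl, Pfkm, Aldoa, Gapdh, Pgk1, Eno1, Ldha and Ldhb. The members were chosen by name, as every mouse probe on the arrays whose accession matched one of these symbols. No measured value entered this rule, but the list was drawn up with earlier results of these data known. They made up 10 of the 19987 genes that could be named on the arrays, with 21 probes of 39429 mouse probes in all. Hypothalamic RNA came from male C57BL/6N offspring at postnatal day (P) 21. There were 5 samples of the control group (CO), whose dams ate standard chow, and 6 samples of the high-fat diet group (HFD), whose dams ate a high-fat diet before conception and through gestation and lactation. The groups thus differed by the diet of the dam, and no transgene or deletion was involved. The study took at most 2 offspring of a dam into an analysis, and the labels give neither the dam nor whether a sample is 1 animal. The CO titles open with a number that 3 samples and 2 samples share, and its meaning is not stated. The p-values therefore speak only for the spread among these samples, which may be technical.

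Hexokinase, phosphofructokinase and pyruvate kinase catalyse the steps of glycolysis that run essentially one way in the cell, and the other enzymes work near equilibrium. In brain, neurons and astrocytes both use the pathway, and lactate dehydrogenase interconverts pyruvate and lactate at its end. Several steps have isozymes from separate genes that differ between cell types, such as Aldoa and Aldoc or Eno1 and Eno2. Many glycolytic genes are also known targets of hypoxia-inducible factor, a transcription factor that binds short motifs, among them ACGTG.

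To show the DNA around the starts of the genes at the end of the pathway, the 250 bases before an annotated start were taken from the RefSeq promoter table (GRCm38.p6) for Ldha and Ldhb, which encode the 2 main subunits of lactate dehydrogenase, and for Pgk1, whose level relative to the 75th percentile did not pass the test. They read 5′ to 3′ on the strand of the gene, and capitals mark ACGTG or its reverse complement CACGT.
Ldha promoter (chr7:46845554-46845803, plus strand): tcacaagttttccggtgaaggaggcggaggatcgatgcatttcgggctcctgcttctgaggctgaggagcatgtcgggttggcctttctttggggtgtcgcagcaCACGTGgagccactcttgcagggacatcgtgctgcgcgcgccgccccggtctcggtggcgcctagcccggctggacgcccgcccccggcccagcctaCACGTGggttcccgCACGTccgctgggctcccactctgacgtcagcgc
Ldhb promoter (chr6:142507958-142508207, minus strand): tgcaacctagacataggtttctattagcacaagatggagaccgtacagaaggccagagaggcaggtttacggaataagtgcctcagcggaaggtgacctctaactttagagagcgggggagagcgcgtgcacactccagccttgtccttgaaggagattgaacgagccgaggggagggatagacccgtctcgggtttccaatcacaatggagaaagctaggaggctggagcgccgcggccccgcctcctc
Pgk1 promoter (chrX:106186850-106187099, plus strand): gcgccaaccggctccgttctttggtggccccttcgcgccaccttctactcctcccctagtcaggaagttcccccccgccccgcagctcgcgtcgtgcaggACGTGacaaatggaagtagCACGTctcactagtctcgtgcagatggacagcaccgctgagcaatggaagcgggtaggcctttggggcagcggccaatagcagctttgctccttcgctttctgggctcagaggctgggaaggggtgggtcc
The Ldha window held 3 stretches in capitals, of which 2 spell CACGTG, a palindrome known as an E-box that contains ACGTG on both strands. The Pgk1 window held 2 stretches, and the Ldhb window held 0. Only ACGTG and CACGTG were searched, so a window without them may hold other motifs of the factor. The table listed 19 windows for the 10 genes, since several have more than 1 annotated start. The Ldha window shown precedes the farthest upstream of its listed starts, which lies inside the gene span given below. The second Ldha window held 0. ACGTG lay on either strand in 6 of these 19 windows, belonging to 4 of the 10 genes (Pfkm, Aldoa, Pgk1 and Ldha). Over all 32851 windows of this length in the table, 16.6% held ACGTG and 6.02% held CACGTG. A match is a description of the letters only and not a binding site, and the arrays did not measure binding.

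Signals were measured on single-dye arrays, where a brighter spot stands for more of the transcript that its probe captures. The relative level used below is log2 of the background-subtracted signal minus the 75th percentile of that array, in log2 units, so that a difference of 1 is a factor of 2. All 21 probes of the members were well above background on all 11 arrays and none was saturated, so every member was measured in every sample. Levels of different probes cannot be set against each other, and only the same probe, or changes, are compared.

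The arrays differed between the groups as a whole. The 75th percentile of the signal ran from 2216 to 2932 intensity units in CO and from 3135 to 3447 in HFD, while 82.5 to 85.7% of spots in CO and 71.8 to 77.4% in HFD were well above background. The groups were scanned in separate sessions 337 days apart, on 2 slides each and with different versions of the extraction settings, so that group, session and slide cannot be told apart. Over all 17189 genes tested, the median difference HFD minus CO was −0.17, and 66.4% of genes passed an adjusted p under 0.05. Of 18 hypothalamus markers, 4 were called higher and 2 lower in HFD. The peptide genes Hcrt, Pmch and Oxt were among the 16 markers well above background on all arrays. Of the transcription factor genes, Sim1 was so on the 6 HFD arrays and on 0 CO arrays, and Otp on 5 CO arrays and 1 HFD array. Sim1 entered the test through the HFD arrays, and its bound was at least 4.37-fold higher in HFD. Its limma adjusted p of 1.11e-05, by which it is counted among the 4 higher, belongs to a measured difference that used CO values not well above background. Markers of other cells are given below as counts called, where 44.1% of all genes tested were called lower and 22.2% higher. Striatal markers were lower for 8 of 10 genes (summed linear level 25.1 to 121.4 times the 75th percentile in CO and 18.0 to 43.7 in HFD), oligodendrocyte markers were lower for 7 and higher for 1 of 11 (354 to 401 and 310 to 389), and neuron markers were higher for 8 and lower for 3 of 14 (212 to 221 and 229 to 255). Astrocyte markers were higher for 3 and lower for 2 of 11 (88.1 to 99.3 and 84.96 to 112.2). Thalamus markers were higher for 4 and lower for 1 of 6 (7.67 to 14.8 and 11.4 to 16.3), and endothelium and pericyte markers were higher for 6 and lower for 3 of 10 (15.2 to 17.4 and 14.6 to 16.95). Oligodendrocyte precursor markers were lower for 3 and higher for 0 of 6 (53.5 to 63.5 and 32.1 to 43.8). Microglia markers were higher for 3 and lower for 6 of 12 (68.3 to 76.3 and 75.9 to 88.6). Ependyma and tanycyte markers were lower for 3 of 8 and choroid plexus markers for 2 of 6, with 0 higher in each. Pituitary markers were higher for 2 and lower for 1 of 5 tested. The part of tissue composition in the results below was not tested, and in bulk tissue fewer cells of a type and less RNA per cell cannot be told apart.

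Relative to the 75th percentile, 8 of the 10 enzyme genes were lower in HFD than in CO offspring by limma and 0 were higher, also at an unadjusted p under 0.05, while Gapdh and Pgk1 did not pass the test. Over all genes tested, 44.1% were called lower and 22.2% higher. The median difference of the 10 genes was −0.32, against −0.17 over all genes, and the single genes ran from −0.57 for Aldoa to −0.015 for Pgk1 (limma, HFD minus CO, n = 5 and 6). In 6 of the 10 genes every HFD array lay below every CO array, as was the case for 30.5% of all genes. The direction of these differences depends on how the arrays were scaled. In unscaled signals, the ratio of mean signals HFD over CO ran from 0.886 (Aldoa) to 1.30 (Pgk1), and it was above 1 for 6 of the genes. The Rank Product test, named in the methods of the study with a stricter threshold, called 0 of the 10 lower and 2.09% of all genes, and an exact Mann-Whitney test called 7 lower, against 41.9% of all genes.

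**Figure D1:**
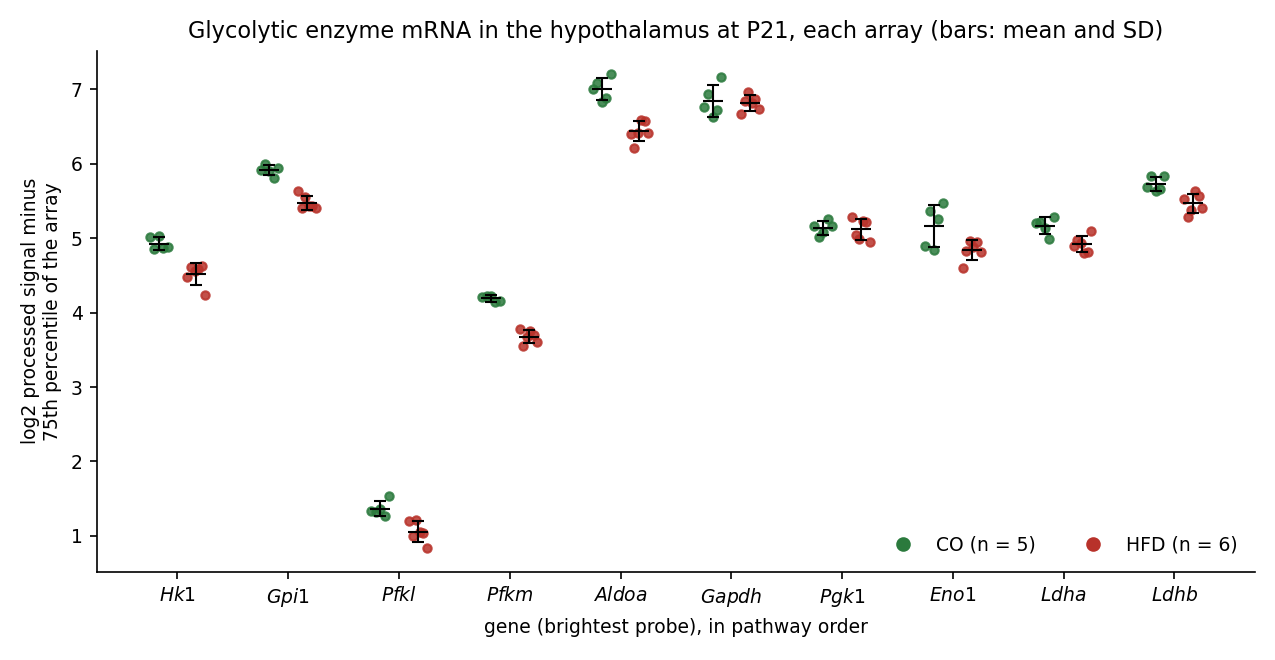
Relative level (log2 processed signal minus the 75th percentile of the array) of the brightest probe of each of the 10 enzymes on each array, with CO samples (n = 5) in green, HFD samples (n = 6) in red, and bars for the mean and SD. In Hk1, Gpi1, Pfkl, Pfkm, Aldoa and Ldhb every HFD point lies below every CO point, whereas Gapdh and Pgk1 points overlap, and heights of different genes cannot be compared because each has its own probe.

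The first steps were lower in HFD offspring at each gene measured. Hk1 (chr10:62268855-62379920 on GRCm38.p6, as for all positions) encodes hexokinase 1, the main hexokinase of brain, which traps glucose in the cell by phosphorylation. Its relative level was 5.01, 4.85, 5.04, 4.86 and 4.88 on the 5 CO arrays and 4.24 to 4.62 (median 4.58) on the 6 HFD arrays. The groups did not overlap, and 1 HFD array, replicate 6, lay apart from the others at 4.24. The difference was −0.41 (SE 0.078, limma adjusted p = 6.99e-04), that is 1.33-fold lower in HFD. A second, dimmer Hk1 probe gave a larger difference of −0.81 (SE 0.079, adjusted p = 5.18e-06 over all probes), with CO values from 0.22 to 0.52 and HFD values from −0.62 to −0.28. Both Hk1 probes thus agreed in direction and differed in size.

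Gpi1 (chr7:34201327-34230336) encodes glucose-6-phosphate isomerase, which makes fructose 6-phosphate. Its CO values were 5.91, 5.998, 5.90, 5.81 and 5.95, and its HFD values were 5.41 to 5.63 (median 5.44). Every HFD array was below every CO array. The difference was −0.44 (SE 0.060, adjusted p = 7.23e-05), and the other Gpi1 probes gave −0.39 and −0.40.

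Phosphofructokinase, the main point of control of the pathway, is a tetramer of subunits from the liver-type gene Pfkl, the muscle-type gene Pfkm and the platelet-type gene Pfkp. Pfkm (chr15:98092589-98132447) read 4.21, 4.23, 4.22, 4.14 and 4.15 in CO and 3.55 to 3.78 (median 3.68) in HFD. These were the tightest CO values of the 10 genes (SD 0.042), and its probe was spotted 10 times on each array. The difference was −0.52 (SE 0.056, adjusted p = 1.14e-05), the smallest adjusted p among the members. Pfkl (chr10:77986947-78009807) read 1.34, 1.32, 1.36, 1.26 and 1.53 in CO and 0.83 to 1.22 (median 1.05) in HFD. Its difference was −0.31 (SE 0.078, adjusted p = 0.00469), and here too the groups did not overlap.

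Aldoa (chr7:126795234-126800994) encodes aldolase A, which splits fructose 1,6-bisphosphate into 2 triose phosphates, and relative to the 75th percentile it had the largest difference among the brightest probes of the 10 genes. Its CO values were 7.01, 7.09, 6.84, 6.89 and 7.20, and its HFD values were 6.22 to 6.59 (median 6.42). Every HFD array was below the lowest CO array. The difference was −0.57 (SE 0.086, adjusted p = 1.41e-04), or 1.48-fold lower in HFD. Aldoa was the lowest of the members also in the ratio of unscaled mean signals.

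The next enzymes, Gapdh and Pgk1, were those that did not pass. Gapdh (chr6:125161852-125166467) encodes glyceraldehyde-3-phosphate dehydrogenase, which makes NADH and is widely used as a reference gene, in this study too. On its brightest probe CO values were 6.77, 6.94, 6.63, 6.72 and 7.17, and HFD values were 6.67 to 6.97 (median 6.83). The groups overlapped throughout, and the difference was −0.027 (95% interval −0.24 to 0.18, adjusted p = 0.817). The array carried 7 Gapdh probes, and their differences ran from −0.27 to −0.027, with 3 of the 7 passing the test as lower. With the values of the 7 probes averaged, the difference was −0.16 (adjusted p = 0.0390), so whether Gapdh passed depended on the probe.

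Pgk1 (chrX:106187100-106203699) encodes phosphoglycerate kinase 1, which makes the first ATP of the pathway. Its single probe read 5.17, 5.01, 5.09, 5.25 and 5.17 in CO and 4.95 to 5.29 (median 5.13) in HFD. Both groups covered nearly the same range. The difference was −0.015 (95% interval −0.18 to 0.16, adjusted p = 0.877), and changes within that interval could not be detected.

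Eno1 (chr4:150236708-150248879) encodes enolase 1, which makes phosphoenolpyruvate. It had the widest CO spread of the 10 genes (SD 0.283), with values of 4.90, 5.36, 4.84, 5.26 and 5.47, against 4.61 to 4.97 (median 4.86) in HFD. CO replicates 1 and 3 lay within the HFD range and the other CO samples above it. The difference of −0.32 (SE 0.121, adjusted p = 0.0342) passed narrowly. It no longer passed without CO replicate 2 (adjusted p = 0.0851), 4 (0.0703) or 5 (0.0873), or without HFD replicate 1 (0.0680), 2 (0.0557) or 6 (0.0568).

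Lactate dehydrogenase is a tetramer of A and B subunits, and the A subunit is known for forms that favour the making of lactate. Ldha (chr7:46842274-46855627), whose window shown above held 3 marked stretches, read 5.20, 5.22, 5.14, 4.99 and 5.29 in CO and 4.81 to 5.10 (median 4.92) in HFD. Only the highest HFD array, replicate 6, and the lowest CO array, replicate 4, overlapped. The difference was −0.25 (SE 0.073, adjusted p = 0.0106). Of its other probes, 1 gave −0.12 (adjusted p = 0.256) and 1 gave −0.41 (adjusted p = 2.42e-04). Ldhb (chr6:142490249-142507957), whose window held none, read 5.68, 5.84, 5.64, 5.66 and 5.83 in CO and 5.29 to 5.64 (median 5.47) in HFD. The groups did not overlap but met at 5.64, and the difference was −0.26 (SE 0.075, adjusted p = 0.00939).

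Among all 21 probes the differences were below 0 for each, with 15 lower, 0 higher and 6 that did not pass. This stood against 43.6% lower and 23.5% higher over all 31796 probes tested. In 11 of the 21 probes every HFD array was below every CO array, against 30.6% of all probes. Probes of 1 gene share their transcript and are not replicates.

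**Figure D2:**
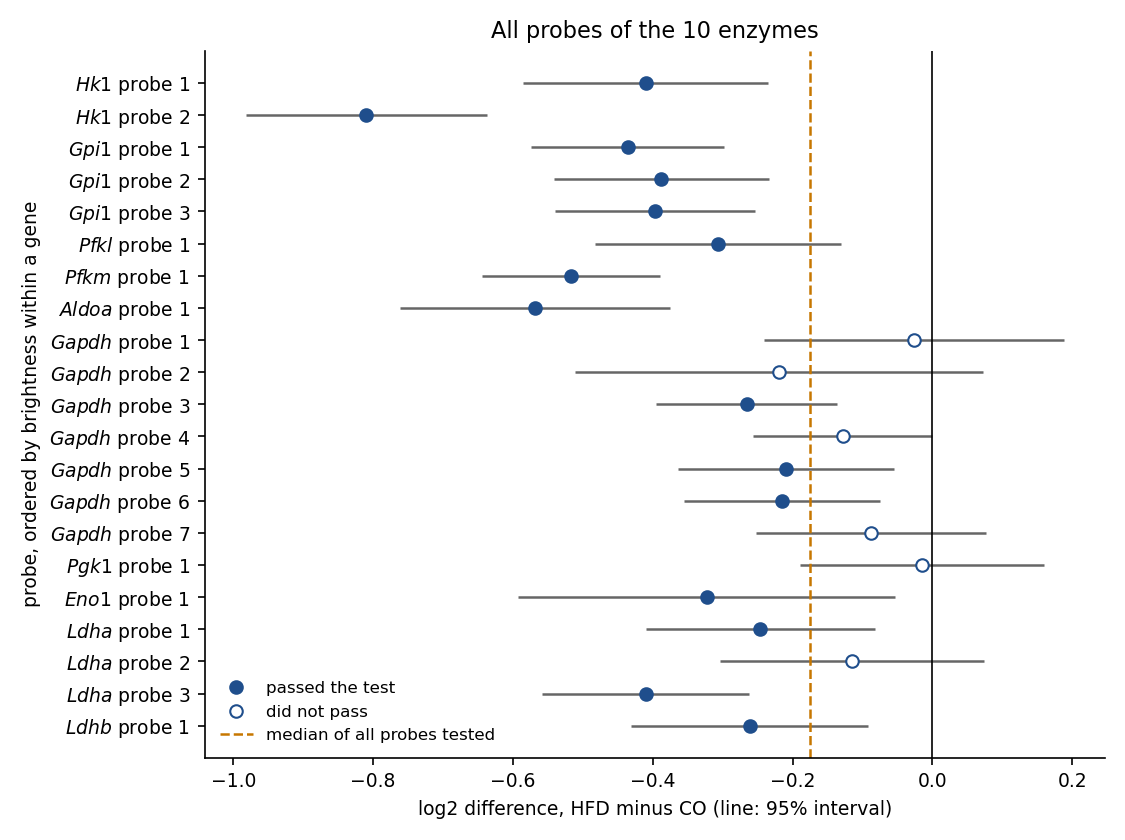
Log2 difference HFD minus CO of each of the 21 probes of the 10 enzymes, with lines for the 95% interval, filled points for probes that passed an adjusted p under 0.05 and a dashed line at the median of all probes tested (−0.18). All 21 points lie left of 0, from −0.81 for the second Hk1 probe to −0.015 for Pgk1, and 4 of 7 Gapdh probes are open.

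How many of the enzymes counted as lower changed with the scaling. Quantile normalization gave 8 of 10 lower, the median of each array 5, normexp background correction 7 and scaling to the spike-in RNA 10, where the shares of all genes called lower were 39.1%, 37.3%, 22.5% and 83.7%. Scaling to the spike-in RNA, which is added in equal amount to each sample, lowered every HFD minus CO difference by 0.68 on the log2 scale. Under the 75th percentile, the median and the spike-in scaling, the median of the 10 genes lay 0.14 below the median of all genes. These scalings each subtract a single value per array from every gene, so their agreement follows from the arithmetic. Under quantile and normexp the median of the 10 genes lay 0.26 and 0.15 below. Hk1, Gpi1, Pfkl, Pfkm and Aldoa, the members of the upper pathway, were called lower under all 5 scalings. With scaling to the median, Eno1, Ldha and Ldhb did not pass (adjusted p = 0.0534, 0.08003 and 0.0580).

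**Figure D3:**
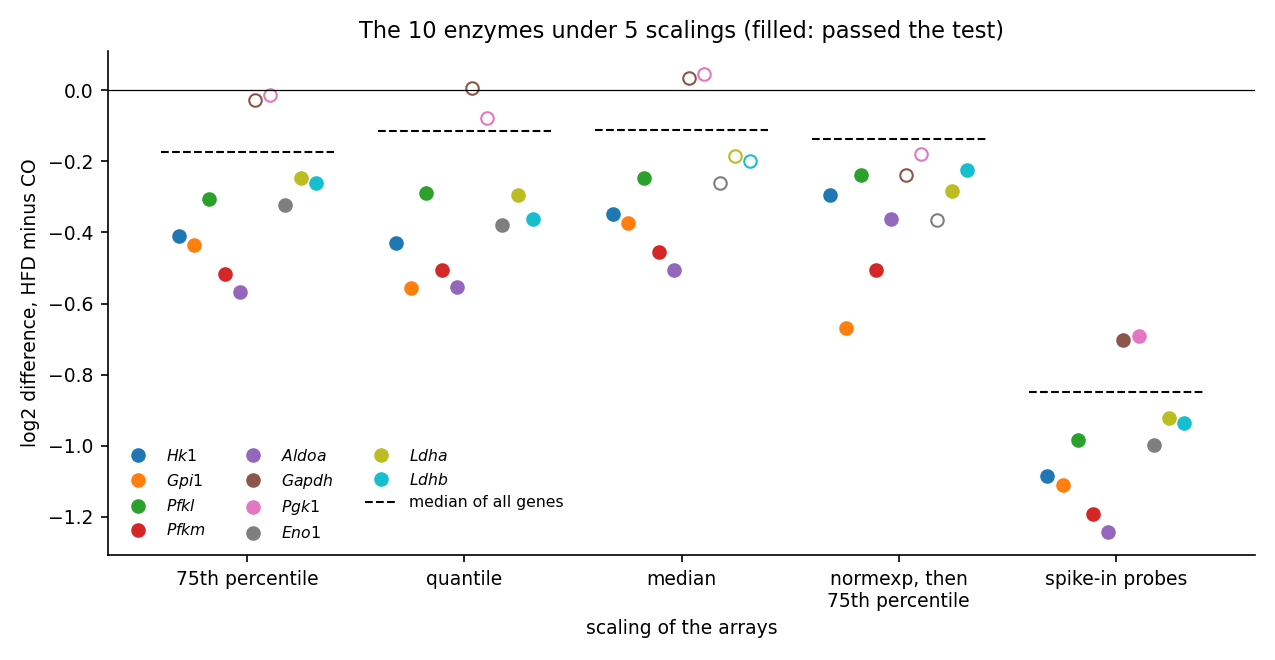
Log2 difference HFD minus CO of the 10 enzymes under 5 ways of scaling the arrays, with filled points for genes that passed an adjusted p under 0.05 and a dashed line at the median of all genes under the same scaling. The median of all genes sits at −0.17, −0.11, −0.11, −0.14 and −0.85 from left to right, and Gapdh and Pgk1 lie nearest to 0 in each but the normexp set, where Pgk1 and Ldhb do.

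A ratio of 2 genes on the same array does not move with a common scaling factor, and 9 such ratios were compared by exact two-sided permutation tests over the arrays, with Benjamini-Hochberg adjustment over the 9. The smallest p this design allows is 0.00216, and session and slide stay tied to group here as well. The member fell relative to its brain isozyme at 3 steps. Aldoa fell relative to Aldoc, the aldolase known as an astrocyte gene, by 0.38 (exact p = 0.00216, adjusted p = 0.00649), with log2 ratios of 0.093, −0.23, −0.21, −0.22 and −0.30 in CO and −0.69 to −0.44 (median −0.55) in HFD. Eno1 fell relative to Eno2, the neuronal enolase, by 0.26 (exact p = 0.00216, adjusted p = 0.00649), with 0.10, 0.082, 0.049, 0.19 and 0.31 in CO and −0.22 to −0.055 (median −0.080) in HFD. Pfkm fell relative to Pfkp by 0.42 (exact p = 0.00216, adjusted p = 0.00649), with 2.66, 2.52, 2.66, 2.31 and 2.33 in CO and 1.99 to 2.18 (median 2.08) in HFD. In these 3 ratios the groups did not overlap, and each kept its call when any 1 array was left out. The isozymes themselves did not pass the test, with differences of −0.18 for Aldoc, −0.07 for Eno2 and −0.10 for Pfkp.

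Within phosphofructokinase, the ratio of Pfkl to Pfkm rose by 0.21 (exact p = 0.0195, adjusted p = 0.0351), with Pfkm further below its CO level than Pfkl. CO ratios were −2.88, −2.91, −2.86, −2.88 and −2.62, and HFD ratios −2.77 to −2.46 (median −2.62), so that CO replicate 5 lay within the HFD range. This call was lost (adjusted p up to 0.0771) without any 1 of CO replicates 1, 2 and 4 and HFD replicates 1, 2 and 5. The Hk1 to Hk2 ratio changed by −0.24 and did not pass (exact p = 0.0498, adjusted p = 0.0560). The Ldha to Ldhb ratio, which bears on the subunit make-up of lactate dehydrogenase, changed by 0.015 (95% interval −0.23 to 0.26, exact p = 0.887). Its HFD values (−0.83 to −0.31) spread more widely than its CO values (−0.67 to −0.48) on both sides, and an increase or decrease of up to about that interval could not be detected.

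Gapdh was also set against the other reference genes. Relative to the 75th percentile Actb was 0.27 higher (adjusted p = 0.0243) and Hprt 0.44 higher (adjusted p = 9.83e-04) in HFD, while Gusb was 0.42 lower (adjusted p = 3.02e-05). With scaling to the spike-in RNA the differences of Actb and Hprt turned to −0.41 and −0.24. The ratio of Gapdh to Actb fell by 0.29 (exact p = 0.0281, adjusted p = 0.0362), that of Gapdh to Hprt fell by 0.46 (exact p = 0.0281, adjusted p = 0.0362), and that of Gapdh to Gusb rose by 0.40 (exact p = 0.0130, adjusted p = 0.0292). Each sign was the same with any of the 7 Gapdh probes, but the brightest lay at 1 end of the range, which was −0.53 to −0.29 for Actb, −0.70 to −0.46 for Hprt and 0.16 to 0.40 for Gusb. The groups overlapped in all 3 ratios. Among leave-one-out sets, the calls for Gapdh to Actb and Gapdh to Hprt held in 2 of 11 each, and that for Gapdh to Gusb in 8 of 11, with adjusted p up to 0.107, 0.0816 and 0.0571. Gapdh to Actb passed only without CO replicate 1 or 3, Gapdh to Hprt only without CO replicate 3 or HFD replicate 3, and Gapdh to Gusb lost its call without HFD replicate 1, 2 or 5. The call of Actb itself was lost without HFD replicate 6 (adjusted p = 0.0514) and with normexp.

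**Figure D4:**
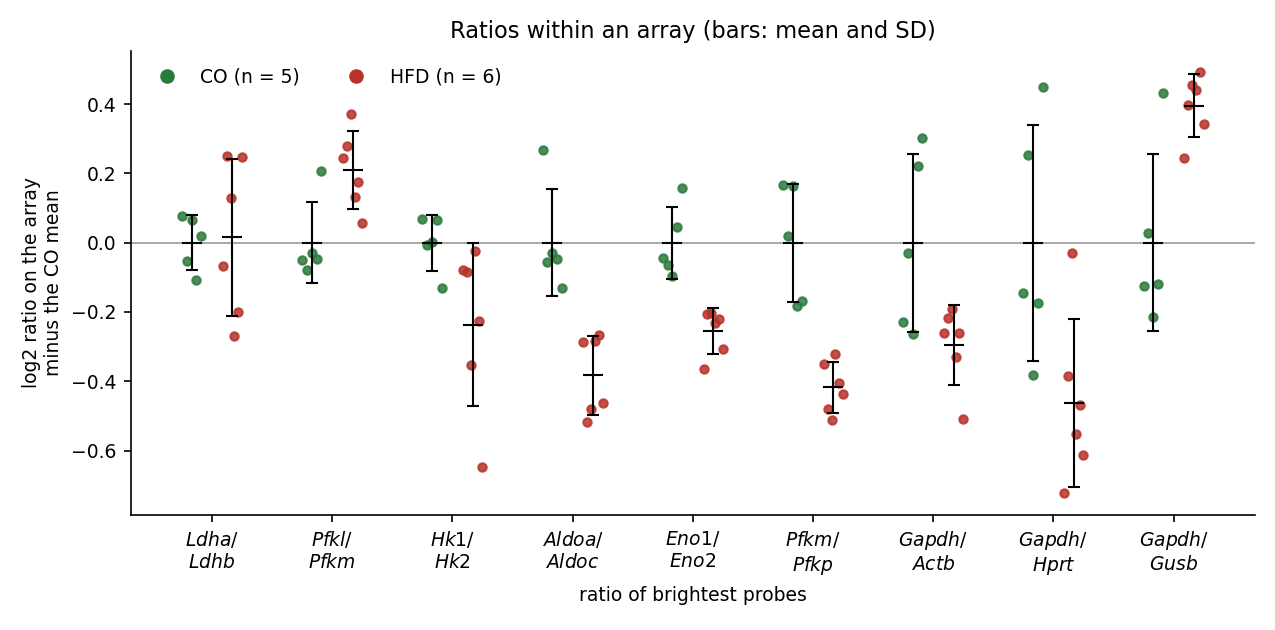
Log2 ratio of the brightest probes of 2 genes on the same array, minus the mean of the CO arrays, for CO (green, n = 5) and HFD (red, n = 6), with bars for the mean and SD. The groups do not overlap in Aldoa/Aldoc, Eno1/Eno2 and Pfkm/Pfkp, where the mean change is −0.38, −0.26 and −0.42, and in Ldha/Ldhb the HFD arrays lie on both sides of the CO arrays.

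Ratios among the 10 members, chosen for testing after their values had been seen, gave 45 pairs, of which 11 passed an adjusted p under 0.05 over the 45. Pgk1 took part in 5 and Gapdh in 4 of these, on the side that was less low in HFD. The pairs reuse the values behind the calls of the single genes and add no support to them. Gapdh stood here by its brightest probe, whose difference of −0.027 was the nearest to 0 of its 7 probes (lowest −0.27). Pairs with its other probes were not tested. The ratio of Aldoa to Pgk1 changed by −0.55, that of Aldoa to Gapdh by −0.54 and that of Pfkm to Pgk1 by −0.50 (exact p = 0.00216 and adjusted p = 0.0139 for each). Of the 28 pairs among the 8 genes that were called lower, 2 passed, namely Aldoa to Ldhb with −0.31 and Pfkm to Ldhb with −0.26. The other pairs of these 8 did not pass over the 45, among them Pfkl to Pfkm, which had passed when adjusted over the 9 ratios above.

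The remaining genes of the pathway were read from a list of 19 other isozymes and steps, of which 18 could be tested and Ldhc could not. Of these 18, 8 were lower, 0 higher and 10 did not pass, where 44.1% of all genes were called lower and 22.2% higher. Their median difference was −0.18 against −0.17 over all genes. Pkm, pyruvate kinase of muscle and brain, which makes pyruvate, was lower by 0.50 (adjusted p = 3.75e-05), with CO values from 4.10 to 4.32 and HFD values from 3.57 to 3.81. Tpi1, the single triose-phosphate isomerase, had a difference of −0.48 (adjusted p = 0.00143) and groups without overlap. Bpgm, which makes 2,3-bisphosphoglycerate in red cells, had −0.23 (adjusted p = 0.00201). Blood markers were lower for 4 of 5 genes, against 44.1% of all genes, and a link to Bpgm was not tested.

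The other isozymes that were lower are known mainly from tissues outside the brain. Hk3 had −0.95 (adjusted p = 1.28e-06) and Hkdc1 −0.96 (adjusted p = 0.0326), both hexokinase genes. Pklr, the pyruvate kinase of liver and red cells, had −1.86 (adjusted p = 1.53e-05), and Pgk2, the phosphoglycerate kinase of testis, had −1.34 (adjusted p = 2.56e-04), but their probes were well above background on only 5 and 3 of the 6 HFD arrays. Gapdhs, the sperm form of Gapdh, was well above background on 5 CO arrays and 0 HFD arrays, so it entered the test through the CO arrays. The bound was at least 1.28-fold lower in HFD relative to the 75th percentile. Its limma adjusted p of 0.00381, by which it is counted among the 8 lower, belongs to the measured difference of −0.77. That difference used HFD values not well above background. It was 0.011 (adjusted p = 0.959) with quantile normalization and −0.17 (adjusted p = 0.823) with normexp. Among those that did not pass, Pgam1, the main phosphoglycerate mutase of brain, had −0.13, Hk2 −0.17, Aldoc −0.18, Ldhd −0.18, Pfkp −0.10, Pgam2 −0.08, Eno2 −0.07 and Eno3 −0.07. Under quantile normalization 10 of the 18 were lower, under normexp 2 and with the spike-in RNA 18, against 39.1%, 22.5% and 83.7% of all genes. Of the genes called lower, only Pkm and Tpi1 passed with normexp, and Hkdc1 also lost its call without CO replicate 5 or HFD replicate 1, 2 or 3 (adjusted p up to 0.0616).

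Further lists covered the control and the side branches of the pathway, with counts relative to the 75th percentile. Under that scaling 44.1% of all genes tested were called lower and 22.2% higher, here and for the lists in the paragraphs that follow. In fructose 2,6-bisphosphate metabolism, which sets the activity of phosphofructokinase, 1 of 5 genes was higher and 1 lower (median −0.06). Pfkfb2 was 0.35 higher (adjusted p = 5.87e-05), Pfkfb4 had −0.43 (adjusted p = 1.69e-04), and Pfkfb1 with −0.07 did not pass. Of 11 transporters of glucose, lactate and pyruvate tested, 2 were higher and 7 lower (median −0.28). Bsg, the chaperone that brings lactate transporters to the membrane, had −0.73 (adjusted p = 9.95e-06), Slc2a6 −0.46 (adjusted p = 1.24e-04) and Slc2a8 −0.42 (adjusted p = 4.37e-04). The main glucose transporters of brain, named for their role after their values were seen, moved apart. Slc2a1, of blood vessels and glia, was 0.32 higher (adjusted p = 0.0263), and Slc2a3, of neurons, had −0.28 (adjusted p = 0.00859). The groups overlapped in each. The largest changes in the list, also named after their values were seen, were in the lactate and pyruvate transporters Slc16a7, 2.02 higher (adjusted p = 0.00117), and Slc16a1, with −0.86 (adjusted p = 7.46e-04). With normexp the calls of Slc2a1, Slc16a7 and Slc16a1 were lost, and that of Slc2a1 was also lost without CO replicate 4 or HFD replicate 1 (adjusted p up to 0.0595), while Slc2a3 lost its call with scaling to the median.

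Of 12 genes of the pyruvate dehydrogenase complex, which turns pyruvate into acetyl-CoA in mitochondria, and its regulators, 4 were higher and 1 lower (median 0.05). But with scaling to the spike-in RNA, where 83.7% of all genes were called lower, 1 was higher and 10 were lower. With normexp, where 22.5% of all genes were called lower, 2 were higher and 0 lower. Pdp1, a phosphatase that activates the complex, was 1.06 higher (adjusted p = 1.34e-04), Dld, its dihydrolipoamide dehydrogenase, was 0.72 higher (adjusted p = 1.73e-04) and Pdp2 was 0.27 higher (adjusted p = 9.93e-04). In gluconeogenesis, 6 of the 7 genes tested were called lower, against 44.1% of all genes, and 0 higher (median −0.50). Among them were Pck2 with −0.52 (adjusted p = 1.97e-05), Pcx, the pyruvate carboxylase, with −0.50 (adjusted p = 1.16e-04) and G6pc with −1.002 (adjusted p = 2.08e-04). With normexp 2 of the 7 were lower, against 22.5% of all genes. With quantile normalization 5 were lower, against 39.1% of all genes, and 1 was higher. That one was Fbp2, which is also counted among the 6 called lower above. Its probe was not well above background on any HFD array, and the bound on its fold, CO over HFD, was 0.945. No decrease of Fbp2 can therefore be stated, and its difference turned from −0.56 to 0.45 with quantile normalization (adjusted p = 0.0105). The pentose phosphate pathway, which leaves glycolysis at glucose 6-phosphate and makes NADPH, had 1 of 10 genes higher and 5 lower (median −0.09). G6pdx, its entry enzyme, had −0.57 (adjusted p = 3.97e-05), Taldo1 −0.35 (adjusted p = 2.33e-04) and Tkt −0.31 (adjusted p = 0.00148). The count of genes higher in this pathway was 0 without CO replicate 2 or HFD replicate 6 and 2 without CO replicate 4. Pdp2, Pck2 and G6pc lost their calls with normexp.

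Of 10 genes of glycogen and glucose 1-phosphate, 2 were higher and 6 lower (median −0.25), against 22.2% and 44.1% of all genes. Pygb, the brain glycogen phosphorylase, had −0.73 (adjusted p = 1.05e-06) and Pgm2 −0.54 (adjusted p = 3.19e-04), while Gbe1, the branching enzyme, was 0.62 higher (adjusted p = 9.17e-05). Only 1 gene was higher without any 1 of the arrays other than those of CO replicate 4 and HFD replicates 3 and 5, and Pgm2 lost its call with normexp. In the hypoxia-inducible factor pathway, 3 of 14 genes were higher and 6 lower (median −0.14), against the same 22.2% and 44.1% of all genes. The oxygen-sensing prolyl hydroxylases Egln1 and Egln2, which mark the factor for breakdown, had −1.25 (adjusted p = 2.98e-07) and −0.63 (adjusted p = 1.38e-05), and Arnt, the partner subunit of the factor, was 0.53 higher (adjusted p = 1.87e-05), a call lost with the mean over the probes of Arnt. With scaling to the spike-in RNA the differences of Pfkfb2, Slc2a1, Pdp2, Gbe1 and Arnt turned negative, that of Dld shrank to 0.048 and lost its call (adjusted p = 0.736), and that of Pdp1 was 0.39 (adjusted p = 0.0380). Under that scaling 0 genes were higher in the fructose 2,6-bisphosphate, gluconeogenesis, pentose phosphate, glycogen and hypoxia-inducible factor lists. In these lists, in this order, 5 of 5, 7 of 7, 10 of 10, 9 of 10 and 13 of 14 were lower, against 83.7% of all genes. With normexp, where 22.5% of all genes were called lower, 0 transporters were higher and 6 lower, and 3 glycogen genes were lower. With scaling to the median, where 37.3% of all genes were called lower, 3 pentose phosphate genes were higher and 3 lower. There 4 glycogen and 4 hypoxia-inducible factor genes were lower.

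**Figure D5:**
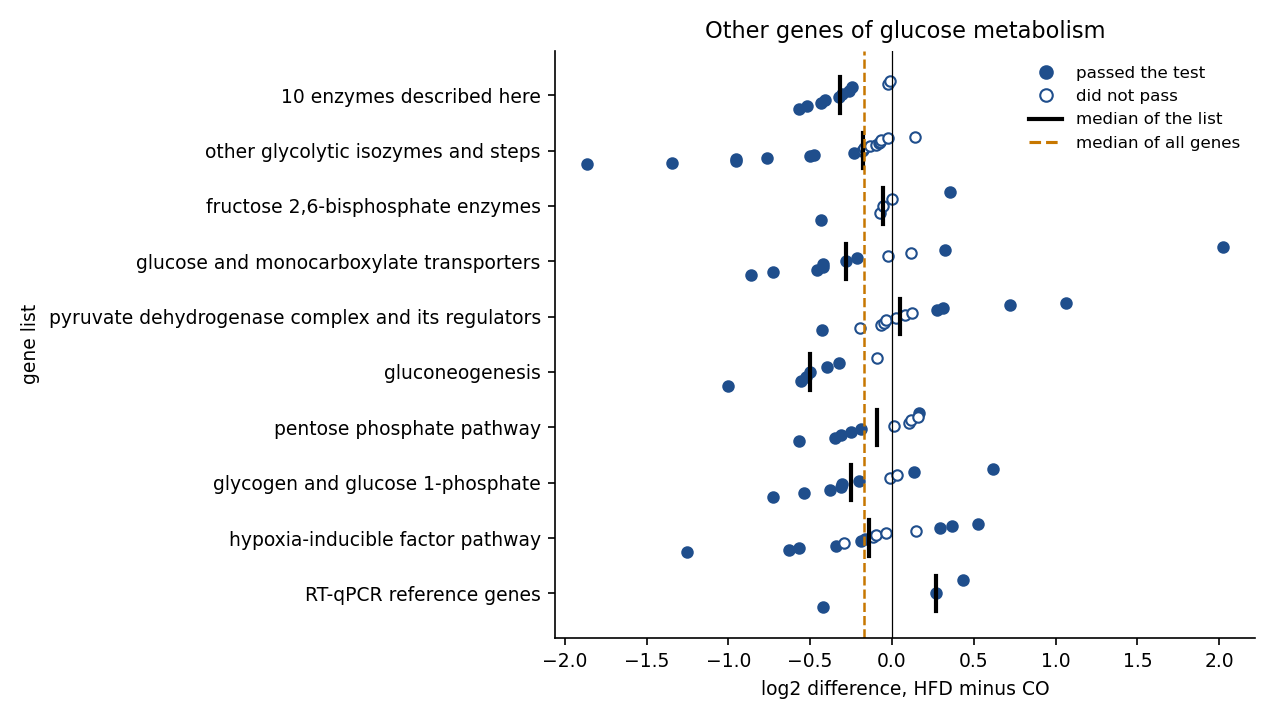
Log2 difference HFD minus CO of every gene tested in the 10 enzymes and in lists of other genes of glucose metabolism, with filled points for genes that passed an adjusted p under 0.05, black bars for list medians and a dashed line at the median of all genes (−0.17). The medians run from −0.50 for gluconeogenesis to 0.05 for the pyruvate dehydrogenase complex among the metabolic lists, with the 10 enzymes at −0.32.

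Genes with the most similar pattern were found as the smallest root mean square distance over the 11 arrays, after each gene was centred on its CO mean, among 15369 other genes well above background on all arrays. Ldhb was nearest to Tmem125 (0.039 log2 units), Pfkm to Fzr1 (0.040), Gpi1 to Fkbp8 (0.041), Ldha to Pop5 (0.059), Eno1 to Mier2 (0.063) and Aldoa to Ciao3 (0.069). Pfkl was nearest to Pgm1 (0.062), a phosphoglucomutase gene of the glycogen list, and its difference of −0.31 stood beside −0.30 for Pgm1. Gapdh was nearest to Cd302 (0.070), Pgk1 to Apmap (0.071) and Hk1 to Wdr11 (0.077).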

How the data were processed

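Hypothalamic RNA of 5 CO and 6 HFD samples at P21 was measured on single-dye Agilent whole mouse genome arrays. The authors deposited scanner output with intensity values from which the Feature Extraction software had subtracted the background. Its version was 10.8 per the submitters' processing notes and 10.7.3.1 per the file header of CO replicate 1. The sources used here do not name their normalization between arrays. No 2 arrays held identical values.

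From these intensities, log2 of the processed signal minus the 75th percentile of each array was computed. Spots of a probe were averaged after control spots and those flagged as outliers were dropped. Of 39429 mouse probes, 26369 matched genes by accession in a RefSeq table (GRCm38.p6). Tests by limma 3.58.1 in R 4.3.3 (two-sided, lmFit and eBayes) covered probes detected above background on 5 or more of 11 arrays (31796 probes, 17189 genes). Adjustment was by Benjamini-Hochberg over all probes, or over genes represented by their brightest probe. The procedure was tested on simulated data. Normexp used the median spot signal (offset 50), where the mean had been planned. Other alternatives were other scalings and filters, blocks, array weights, an exact Mann-Whitney test, the Rank Product test of the methods (percentage of false positives under 0.001, 100 permutations), a threshold of 0.001 and leaving out each array. Genes named beside the 10 enzymes were the other isozymes (2 are not reported here), up to 3 per further list with the smallest adjusted p, the reference genes and the nearest gene to each member. The members and lists were chosen with earlier results of these data known. Probe sequences were not used here, so cross-hybridization with pseudogenes, which Gapdh, Aldoa, Eno1, Ldha and Pgk1 are known to have, was not tested. The number of arrays limits the precision.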

Additional observations from a re-analysis of the deposited data

Results flagged for a closer look

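Of 38 groups of values for members and ratios, 3 held a sample far from the others, and chance alone gives about 1 in 20. The ratio of Pfkl to Pfkm was −2.62 on the array of CO replicate 5, while the nearest CO array was at −2.86. The ratio of Aldoa to Aldoc was 0.093 on the array of CO replicate 1 and −0.21 on the nearest. The relative level of Hk1 was 4.24 on the array of HFD replicate 6 and 4.49 on the nearest HFD array, and without HFD replicate 6 Hk1 was still called lower. What set these arrays apart was not tested.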

How the results depend on the processing

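The 10 enzymes had 0 genes called higher under all alternatives run. The count called lower was 7 or 8 when any 1 array was left out (13 to 16 of the 21 probes), 5 with scaling to the median, 4 with a threshold of 0.001 (8 probes) and 0 with the Rank Product test (0 probes), and normexp called 8 probes. Over all genes, calls higher and lower were 946 and 14384 with the spike-in RNA, 448 and 358 with Rank Product and 2254 and 4122 at 0.001, and normexp called 3868 lower. Over all probes they were 2248 and 25636 with the spike-in RNA, 4590 and 5356 with normexp, 896 and 664 with Rank Product and 4602 and 7672 at 0.001. Leaving out 1 array gave 3577 to 3813 genes higher and 7052 to 7576 lower, and 7067 to 7489 probes higher and 12837 to 13748 lower. The share of calls that were higher was 33.5%, and 39.1% with quantile, 39.6% with median, 40.9% with normexp, 6.17% with spike-in scaling and 55.6% with Rank Product.

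Gapdh and Pgk1, which did not pass, changed sign. Gapdh was 0.0077 with quantile normalization, 0.034 with scaling to the median and 0.016 with array weights, and −0.080 to 0.054 without 1 array. Pgk1 was 0.047 with scaling to the median, 0.0078 with array weights and −0.048 to 0.020 without 1 array. Eno1 also lost its call with normexp (adjusted p = 0.0560), Mann-Whitney (0.115) and array weights (0.0611). With the spike-in RNA, Pfkfb2 was −0.32, Slc2a1 −0.35, Pdp2 −0.40, Gbe1 −0.059, Arnt −0.15, Hprt −0.24 and Actb −0.41. Gapdhs was 0.011 with quantile normalization, and Pdp2 −0.28 with the mean over its probes. The cause was not tested.

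The ratio of Ldha to Ldhb was −0.060 with normexp and −0.032 to 0.072 without 1 array, Gapdh to Gusb was 0.14 and no longer passed with normexp (0.34 to 0.50 without 1 array), and Hk1 to Hk2 passed with −0.44 as the mean over probes (−0.28 to −0.15 without 1 array). Without 1 array the change was 0.18 to 0.26 for Pfkl to Pfkm, −0.42 to −0.32 for Aldoa to Aldoc, −0.28 to −0.22 for Eno1 to Eno2, −0.46 to −0.38 for Pfkm to Pfkp, −0.36 to −0.22 for Gapdh to Actb and −0.56 to −0.35 for Gapdh to Hprt. The Pfkl to Pfkm call held in 5 of 11 of these sets.

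The labels do not say that replicate numbers pair the samples. Deviations of same-numbered arrays correlated at 0.22, −0.020, −0.087, 0.016 and 0.16. The same-numbered HFD array was the best match for CO replicates 1 and 5 and not for 2, 3 and 4. Such correlations cannot exclude a pairing. With the replicate block, in which HFD replicate 6 has no partner, 8 enzymes were lower, 3505 genes were higher and 7127 lower, Pgk1 was 0.020 and Ldha to Ldhb −0.032. With the shared leading number of the CO titles as a random block, 8 enzymes were lower.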
